A study of Mus musculus with 14 samples.

Results

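The genes described here are 52 genes of the cell cycle and of DNA replication, matched by symbol in a table of 20308 measured genes. Of them, 27 act mainly around the G1/S transition and in S phase and 25 in G2 and mitosis. The rule that picked them uses no measured value, though it was written with earlier results of these data known, and 51 of the 52 passed the filter on low counts, among 13011 tested genes. Cdkn2a did not. Expression was measured by RNA-seq of polyadenylated RNA from the urothelium, the epithelium that lines the bladder, of mouse embryos of the strain C57BL/6; 129S4, taken at embryonic day 15.5.

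The 14 libraries formed 3 groups. Dnmt1cKO embryos (n = 5) were Shhcre/+; Dnmt1flox/flox, so that Cre made in cells that use the Shh locus removes Dnmt1, the maintenance DNA methyltransferase. Cre-positive controls (n = 2) were Shhcre/+; Dnmt1flox/+ and kept an intact allele of Dnmt1. The Cre-negative libraries (n = 7) came from littermates without Cre, whose floxed alleles are not stated. The Dnmt1cKO and control embryos share the Cre insertion at Shh, so a comparison of Dnmt1cKO with Cre-negative urothelium differs in Cre as well as in Dnmt1. Each library was made from a lysate of tissue pooled from several embryos after trypsin had been used to part the epithelium from the stroma. The labels do not say whether lysates of a group share litters, so p-values measure the spread between these lysates.

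Dnmt1 itself was at 9.99, 26.7, 123, 31.2 and 49.1 CPM in Dnmt1cKO libraries 1 to 5, at 97.4 and 106 CPM in the controls, and between 41.3 and 192 CPM in Cre-negative libraries. Levels are in CPM, the gene's counts scaled to a common library size after TMM normalization. The log2 fold change of Dnmt1 in Dnmt1cKO was -1.31 ± 0.52 (SE) over Cre-negative (adjusted p = 0.249, edgeR). Over the controls it was -1.08 ± 0.68 (adjusted p = 0.95, edgeR), and neither passed at an adjusted p under 0.05. The library labelled Dnmt1cKO 3 lay at the level of the other groups in Dnmt1, against its label. Its mean of stroma markers was 7.06 log2(CPM + 1), and the part of stroma in its Dnmt1 level was not tested. Calls, class medians and the folds of several members are given with and without this library. Dnmt1cKO 5, at 49.1 CPM, was below both controls but inside the Cre-negative range. Counts per gene include any exons that a recombined allele still transcribes. Shh, the ligand gene whose locus carries Cre, was at 32.5, 98.3, 3.85, 65.2 and 18.3 CPM in Dnmt1cKO libraries 1 to 5, 156 and 61.8 CPM in the controls and 168 to 373 CPM in Cre-negative libraries, so that the library labelled Dnmt1cKO 3 was the lowest of the 14.

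Cells pass from G1 into S phase when D-type cyclins with Cdk4 or Cdk6, and then cyclin E with Cdk2, phosphorylate the retinoblastoma protein and release E2F transcription factors. E2F targets then license origins, through Cdc6, Cdt1 and the Mcm helicase, and supply the replication fork and its nucleotides. Genes for G2 and mitosis are switched on later, when complexes that bind the cell cycle genes homology region (CHR) and the neighbouring CCAAT boxes turn from repression to activation with Foxm1. Cyclins A and B with Cdk1, the Aurora and Polo kinases and the spindle checkpoint then drive and time mitosis. In the embryonic bladder the urothelium is still growing, and Dnmt1 acts at the replication fork, where it copies methylation to the new strand.

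The promoters of the 2 classes differ in the letters that such factors are known to read. RefSeq promoter windows of GRCm38.p6, from 250 bases before to 50 bases after a start, were matched by symbol for 42 of the 52 members, in 21 windows of G2/M and 26 windows of G1/S members. A CHR form (TTTGAA or TTCGAA, both strands) lay in 17 of the 21 G2/M windows (81%) and in 4 of the 26 G1/S windows (15.4%), against 19.2% of all 32851 windows. A CCAAT box (CCAAT, both strands) was present in 90.5% of G2/M windows, 61.5% of G1/S windows and 37.4% of all windows. Reading along the gene's strand, a CCAAT box stood before a CHR form in 81% of G2/M windows, 7.69% of G1/S windows and 4.01% of all windows. E2F forms (TTTGGCGC, TTTCCCGC, TTTGCCGC or TTTCGCGC, both strands) were found in 4.76% of G2/M windows, 38.5% of G1/S windows and 2.26% of all windows. The median ratio of observed to expected CpG was 0.868 in G2/M windows and 0.85 in G1/S windows, against 0.384 in all windows. These matches describe the sequence and were not tested as binding sites, and windows of 1 gene can overlap. The 250 bases before the start are shown for 4 G2/M genes with a CCAAT box and a CHR form and for 3 G1/S genes with an E2F form, 5′ to 3′ on the gene's strand. Capitals mark the matches to the 3 motifs, which can overlap on opposite strands, as in Mcm5 and Mcm6.
Cdk1 promoter, chr10:69352913-69353162, minus strand: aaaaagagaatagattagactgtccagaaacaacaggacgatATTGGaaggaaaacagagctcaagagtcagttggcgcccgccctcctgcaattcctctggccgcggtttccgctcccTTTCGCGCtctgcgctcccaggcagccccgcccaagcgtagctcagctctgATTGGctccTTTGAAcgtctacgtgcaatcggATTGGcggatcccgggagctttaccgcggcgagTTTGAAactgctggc
Mki67 promoter, chr7:135716380-135716629, minus strand: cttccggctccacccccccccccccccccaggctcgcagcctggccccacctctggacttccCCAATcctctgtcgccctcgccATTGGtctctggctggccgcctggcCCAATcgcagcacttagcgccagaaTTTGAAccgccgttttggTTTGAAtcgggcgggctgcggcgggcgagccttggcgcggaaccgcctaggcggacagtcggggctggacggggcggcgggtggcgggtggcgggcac
Top2a promoter, chr11:99024190-99024439, minus strand: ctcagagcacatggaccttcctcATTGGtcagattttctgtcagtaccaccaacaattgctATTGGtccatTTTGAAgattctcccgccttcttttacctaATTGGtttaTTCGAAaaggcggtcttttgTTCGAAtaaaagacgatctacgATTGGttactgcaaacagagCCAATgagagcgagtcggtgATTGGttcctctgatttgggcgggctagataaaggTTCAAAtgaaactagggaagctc
Kif11 promoter, chr19:37376132-37376381, plus strand: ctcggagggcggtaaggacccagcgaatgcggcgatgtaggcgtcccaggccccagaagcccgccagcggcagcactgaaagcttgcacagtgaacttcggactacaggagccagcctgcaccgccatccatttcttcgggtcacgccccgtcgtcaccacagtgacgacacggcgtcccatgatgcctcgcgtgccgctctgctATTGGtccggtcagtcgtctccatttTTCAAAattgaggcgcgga
Mcm5 promoter, chr8:75109259-75109508, plus strand: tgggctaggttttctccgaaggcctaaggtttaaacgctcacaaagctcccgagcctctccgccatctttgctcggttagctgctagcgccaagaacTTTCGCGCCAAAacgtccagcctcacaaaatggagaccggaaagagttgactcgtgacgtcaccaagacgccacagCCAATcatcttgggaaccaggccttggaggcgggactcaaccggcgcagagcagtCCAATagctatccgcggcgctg
Mcm6 promoter, chr1:128359706-128359955, minus strand: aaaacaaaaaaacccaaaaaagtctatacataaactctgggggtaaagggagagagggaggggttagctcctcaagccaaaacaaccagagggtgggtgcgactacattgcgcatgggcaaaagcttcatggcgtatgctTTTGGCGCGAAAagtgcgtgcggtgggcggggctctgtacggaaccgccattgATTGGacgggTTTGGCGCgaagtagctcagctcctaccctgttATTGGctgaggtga
Cdc6 promoter, chr11:98907901-98908150, plus strand: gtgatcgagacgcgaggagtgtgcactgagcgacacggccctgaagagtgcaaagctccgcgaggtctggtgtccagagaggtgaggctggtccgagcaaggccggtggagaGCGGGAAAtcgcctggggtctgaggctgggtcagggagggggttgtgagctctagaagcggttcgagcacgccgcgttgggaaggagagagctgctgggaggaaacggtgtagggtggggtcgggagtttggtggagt
In the sequence shown, Top2a held 6 CCAAT boxes and 4 CHR forms and Cdk1 was the G2/M gene that also held an E2F form, whereas Mcm6 held 3 E2F forms, Mcm5 held 2 and neither had a CHR form.

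Totals ran from 2520509 to 9573007 expected counts in Dnmt1cKO libraries, were 13131921 and 5731113 in the controls and ran from 3111972 to 12958881 in Cre-negative libraries, and between 9397 and 13729 genes had a count. A level of 3 counts corresponded to between 0.207 and 1.3 CPM. All 16 urothelial markers, keratins and uroplakins among them, were detected in every group, with summed levels of 5620 to 16600 CPM in Dnmt1cKO, 7990 and 13500 CPM in control and 11900 to 20600 CPM in Cre-negative libraries. The 18 markers of stroma and smooth muscle summed to between 275 and 12300 CPM (median 2850) in Dnmt1cKO libraries, to 3480 and 13000 CPM in the controls, and to between 231 and 3330 CPM (median 679) in Cre-negative libraries, and all 18 had counts in each group. The 6 endothelial markers summed to 0 to 135 CPM (median 14.4) in Dnmt1cKO, 17.3 and 57.1 CPM in control and 0.346 to 16.9 CPM (median 4.25) in Cre-negative libraries. The 6 neural and glial markers summed to 12.5 to 217 CPM (median 17.8), 15.4 and 64.8 CPM, and 5.8 to 12.4 CPM (median 8.82) in the same groups, with Sox10 at 0 in control and Cre-negative libraries. The 7 erythroid markers summed to 162 to 1730 CPM (median 334), 422 and 1150 CPM, and 63.7 to 365 CPM (median 300). The 5 immune markers summed to 0 to 79.9 CPM (median 0.725), 5.87 and 20.2 CPM, and 0 to 5.8 CPM (median 0.255), with Cd68 at 0 in Dnmt1cKO and control libraries and Lyz2 at 0 in Dnmt1cKO libraries. In bulk tissue, fewer cells of a type and less RNA per cell cannot be told apart.

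Against Cre-negative urothelium, Dnmt1cKO urothelium differed in 1 of the 51 tested members, the G1 cyclin gene Ccnd1, which was higher. No member was lower. The other 50 members, including Mki67, Pcna, the Mcm helicase genes and the mitotic kinases, did not pass edgeR's quasi-likelihood test with Benjamini-Hochberg adjustment over all tested genes. Of all tested genes 0.915% were called higher and 0.184% lower, so that 1 higher and 0 lower members are near the background. At an unadjusted p under 0.05, 2 members (Ccnd1 and Ccnd2) were higher and 0 lower, against 6.66% and 7.03% of all tested genes. DESeq2 and limma-voom each called 2 members higher, Ccnd1 and Ccnd2, and 0 lower.

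Among the 26 tested G1/S members the median log2 fold change was -0.003 and 13 were positive. Among the 25 G2/M members the median was 0.20 and 16 (64%) were positive, against a median of -0.035 and 47.9% positive over all tested genes. Without the library labelled Dnmt1cKO 3 the medians were -0.058 for G1/S and 0.092 for G2/M members, and with the mean of the stroma markers as a covariate they were -0.237 and -0.092. The 95% intervals of 10 members lay within 2-fold either way, a share of 19.6%, against 9.71% of all tested genes. These were Kif23, Cenpf and Mki67 in the G2/M class and Cdk4, Mcm3, Mcm4, Mcm5, Mcm7, Pcna and Rrm1 in the G1/S class. For the other 41, changes of 2-fold or more in at least 1 direction remain within the interval.

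**Figure D1:**
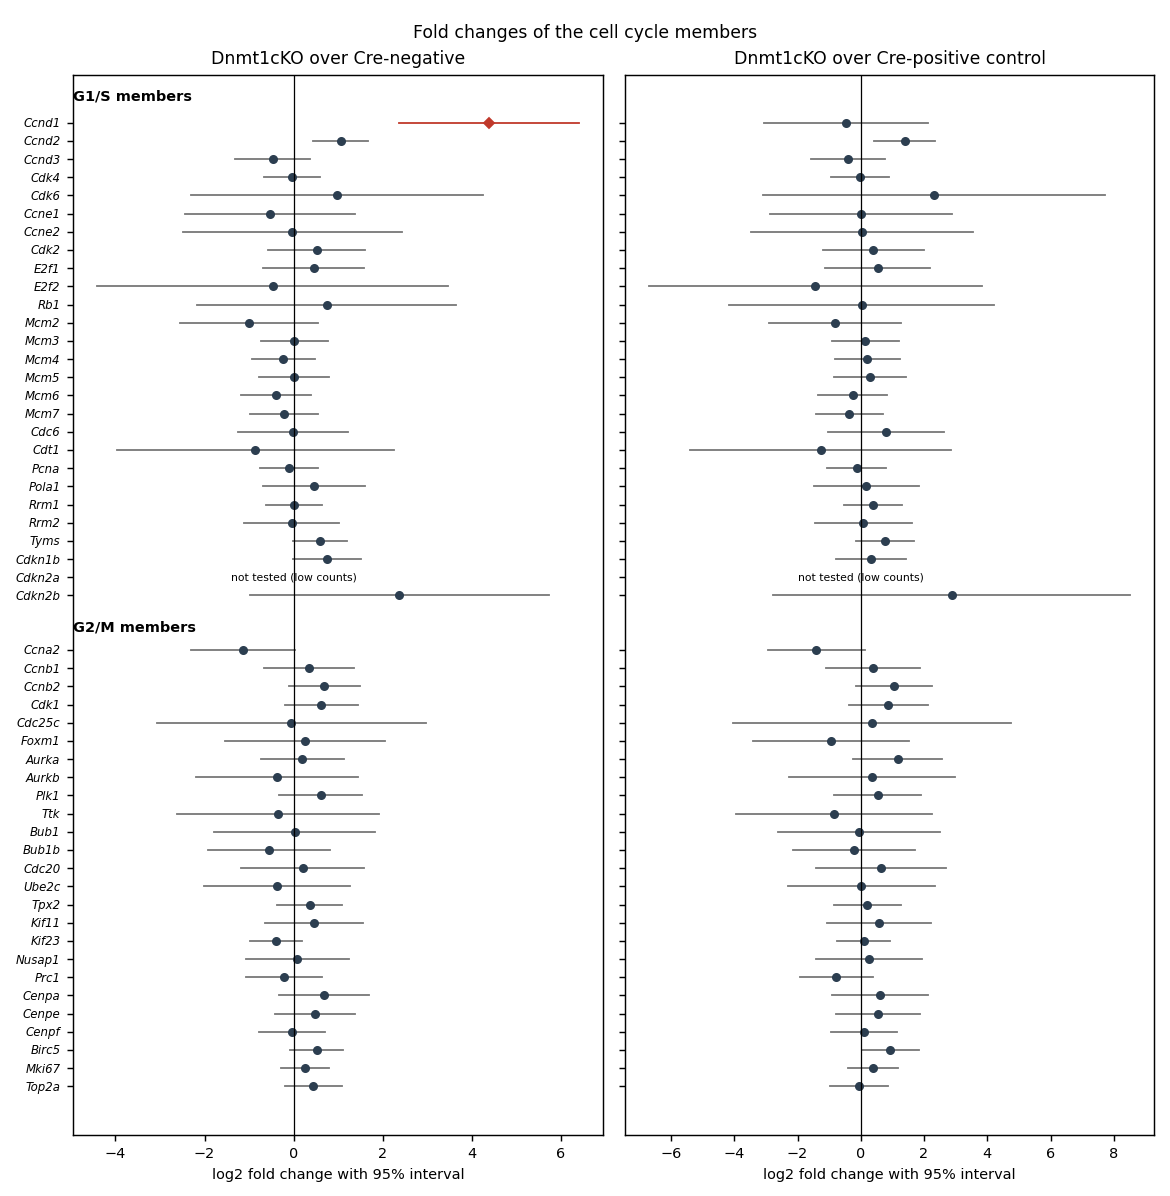
Log2 fold changes (points) with 95% intervals (lines) of the G1/S and G2/M members for Dnmt1cKO over Cre-negative (left) and over Cre-positive control urothelium (right), from edgeR's quasi-likelihood fit; red diamonds passed an adjusted p of 0.05. Ccnd1 at 4.38 on the left is the single called member.

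The D-type cyclins, the first cyclins to act in G1, did not move alike. Ccnd1, on chromosome 7 from 144929931 to 144939925 (GRCm38, minus strand), had 53.1, 28.8, 76, 62.8 and 96.1 CPM in Dnmt1cKO libraries 1 to 5 and 34.3 and 141 CPM in the 2 controls, against a range of 0 to 12 CPM with a median of 0.682 CPM in Cre-negative libraries. Every library that carried Shhcre lay above every Cre-negative library, while the Dnmt1cKO and control ranges overlapped. The log2 fold change of Dnmt1cKO over Cre-negative was 4.38 ± 0.98 (SE, adjusted p = 0.0211, edgeR), or 4.33 without the library labelled Dnmt1cKO 3 (adjusted p = 0.0306). Of all tested genes, 0.861% had the 5 Dnmt1cKO libraries above the 7 Cre-negative ones without overlap, and 0.999% had all 5 below them, as 0 members did.

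Stroma markers were also higher in most libraries with high Ccnd1, with a mean over the 18 markers of 2.54, 5.07, 7.06, 6.75 and 5.21 log2(CPM + 1) in Dnmt1cKO libraries 1 to 5, 5.51 and 7.15 in the controls, and 2.5 to 5.27 in Cre-negative libraries. Dnmt1cKO 1, whose stroma mean of 2.54 was near the lowest, held 53.1 CPM of Ccnd1, and Cre-negative 4 and 5, at stroma means of 5.09 and 5.27, held 6.61 and 12 CPM, the highest stroma means and the highest Ccnd1 levels of the Cre-negative group. Summed endothelial, neural, erythroid and immune markers, given above, also reached higher in Dnmt1cKO and control than in Cre-negative libraries, and their part in the Ccnd1 result was not tested. In a fit with the stroma mean as covariate the log2 fold change was 4.33 (adjusted p = 0.0176). The call was lost without the 3 libraries of highest stroma mean (4.33, adjusted p = 0.104), without the 3 of lowest total (4.07, adjusted p = 0.103), in the fit of these groups alone (4.44, adjusted p = 0.0691) and without Cre-negative 7 (4.20, adjusted p = 0.0539).

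Ccnd2, on chromosome 6 from 127125162 to 127152193 (minus strand), encodes the D-type cyclin with the highest level per length of exon in each of the 3 groups. It had 452, 1450, 647, 523 and 1230 CPM in Dnmt1cKO libraries, 340 and 317 CPM in the controls, and 269 to 695 CPM (median 368) in Cre-negative libraries. Dnmt1cKO 2 and 5 stood far above all others, the other Dnmt1cKO libraries lay within the Cre-negative range, and all 5 lay above both controls. The log2 fold change over Cre-negative was 1.05 ± 0.30 (adjusted p = 0.0951, edgeR), or 1.17 without the library labelled Dnmt1cKO 3 (adjusted p = 0.0858), and it passed with DESeq2 (1.10, adjusted p = 0.0162) and limma-voom (1.03, adjusted p = 0.0436).

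Ccnd3, on chromosome 17 from 47505051 to 47599691 (plus strand), had 124, 52.2, 120, 62.3 and 19.1 CPM in Dnmt1cKO libraries, 101 and 97.6 CPM in the controls, and 54.9 to 143 CPM (median 110) in Cre-negative libraries. The groups overlapped, with Dnmt1cKO 5 lowest, and the log2 fold change over Cre-negative was -0.47 ± 0.41 (adjusted p = 0.713, edgeR). The partner kinase gene Cdk4 averaged 324 ± 160 CPM in Dnmt1cKO and 332 ± 110 CPM in Cre-negative libraries (SD), and Cdk6 averaged 12.8 ± 11.3 and 6.52 ± 6.72 CPM, with n = 5 and 7. Exons of genes on the opposite strand overlap Ccnd1, Ccnd2, Ccnd3, Cdk4 and Cdk6, and the use of strand in counting was not given in the sources used here.

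**Figure D2:**
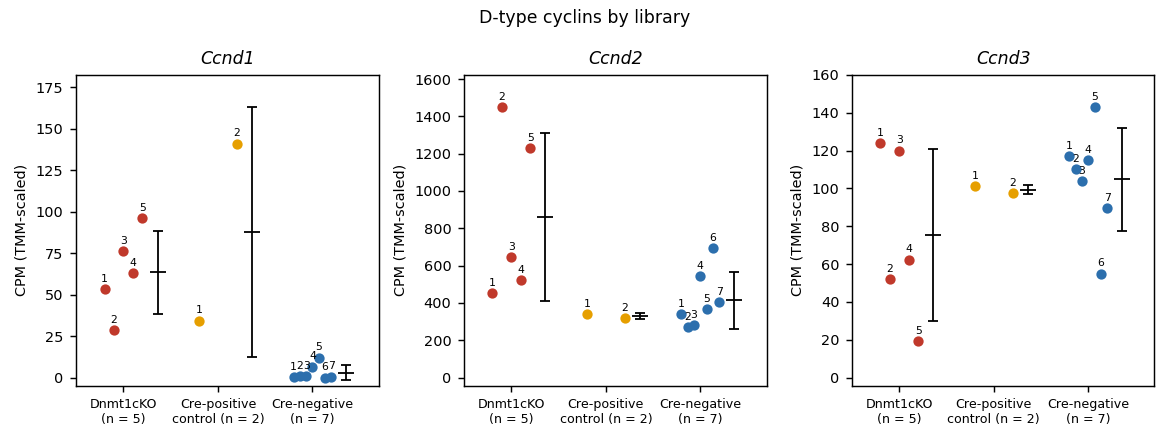
CPM (TMM-scaled, linear axis) of the 3 D-type cyclin genes in each library, numbered by replicate, with the mean and SD of each group beside the points. Ccnd1 is at most 12 CPM in Cre-negative libraries and at least 28.8 CPM in all Cre-carrying libraries, Ccnd2 is highest in Dnmt1cKO 2 and 5, and Ccnd3 overlaps between groups.

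Of the other G1/S members none passed the test against Cre-negative urothelium. Cyclin E partner Cdk2 had 88.2, 61.4, 82.7, 72 and 10.9 CPM in Dnmt1cKO libraries and 18.5 to 67.6 CPM (median 47.8) in Cre-negative libraries. Dnmt1cKO 1 and 4 and the library labelled Dnmt1cKO 3 lay above the Cre-negative range and Dnmt1cKO 5 below it. The cyclin E genes Ccne1 and Ccne2 averaged 16.4 and 18.1 CPM in Dnmt1cKO libraries and 23.7 and 18.6 CPM in Cre-negative libraries. E2f1, the activator of many S phase genes, was at 21.4, 45.9, 92.8, 71.8 and 37.4 CPM in Dnmt1cKO libraries against 17.5 to 58.6 CPM (median 44.4) in Cre-negative libraries, and the libraries labelled Dnmt1cKO 3 and 4 were above that range. E2f2 and Rb1, the retinoblastoma gene, were low, with averages of 3.03 and 16.2 CPM in Dnmt1cKO libraries and 4.25 and 9.66 CPM in Cre-negative libraries.

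Among the origin licensing genes, Mcm2, a subunit of the replicative helicase, had 44.8, 106, 1.2, 0.725 and 28.7 CPM in Dnmt1cKO libraries and 34.6 to 120 CPM (median 69.4) in Cre-negative libraries. The libraries labelled Dnmt1cKO 3 and 4 held 5 and 3 counts of it, whereas every other library held at least 66. The log2 fold change was -1.01 ± 0.76 (adjusted p = 0.648, edgeR), or -0.67 without the library labelled Dnmt1cKO 3. The remaining helicase genes did not share those 2 low values to that extent: Mcm6 had 59.9 and 31.4 CPM in the same libraries and Mcm5 had 185 and 50.7 CPM. Mcm3, Mcm4, Mcm5, Mcm6 and Mcm7 averaged 94 to 139 CPM in Dnmt1cKO and 110 to 162 CPM in Cre-negative libraries, and their log2 fold changes lay between -0.40 and 0.02.

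Cdc6, which loads the helicase at origins, had 15.7, 101, 77, 45.7 and 65.2 CPM in Dnmt1cKO libraries and 5.46 to 151 CPM (median 64.4) in Cre-negative libraries, so the wider range was the Cre-negative one. Its partner Cdt1 was at 0.285, 42.8, 0, 0.483 and 0 CPM in Dnmt1cKO libraries and at 0.127 to 34.1 CPM in Cre-negative libraries. Cdt1 was thus at or below the level of 3 counts in all Dnmt1cKO libraries but Dnmt1cKO 2, and likewise in Cre-negative 3 and 6.

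Pcna, the sliding clamp of the replication fork, had 71.6, 138, 192, 131 and 97 CPM in Dnmt1cKO libraries and 100 to 195 CPM (median 119) in Cre-negative libraries, and Pola1, the catalytic subunit of the priming polymerase, had 26.3, 77.1, 75.3, 51.5 and 24.8 CPM against 18.4 to 72.9 CPM (median 28). Both overlapped between groups. Tyms, which makes thymidylate, had 175, 153, 352, 363 and 200 CPM in Dnmt1cKO libraries and 118 to 246 CPM (median 171) in Cre-negative libraries. The libraries labelled Dnmt1cKO 3 and 4 stood above the rest, and the log2 fold change was 0.59 ± 0.29 (adjusted p = 0.389, edgeR) or 0.45 without the library labelled Dnmt1cKO 3 and 0.22 with the stroma covariate. The ribonucleotide reductase genes Rrm1 and Rrm2 averaged 281 and 46.4 CPM in Dnmt1cKO and 279 and 47.8 CPM in Cre-negative libraries.

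The inhibitors of cyclin-dependent kinases among the members did not pass either. Cdkn1b, which encodes p27, had 59.1, 73.2, 205, 128 and 200 CPM in Dnmt1cKO libraries, 99.2 and 113 CPM in the controls and 53 to 115 CPM (median 72.7) in Cre-negative libraries. Dnmt1cKO 4 and 5 and the library labelled Dnmt1cKO 3 were above all Cre-negative libraries, and the log2 fold change was 0.74 ± 0.37 (adjusted p = 0.386, edgeR), or 0.56 without the library labelled Dnmt1cKO 3. Cdkn2b, which encodes p15, was uneven: 42.5, 13.6, 0, 38.7 and 0 CPM in Dnmt1cKO libraries, 3.04 and 2.1 CPM in the controls, and 0 to 9.99 CPM in Cre-negative libraries, with a log2 fold change of 2.37 ± 1.63 (adjusted p = 0.595, edgeR). Cdkn2a, which gives p16 and Arf, had 0 counts in 13 libraries and 19 counts, 1.31 CPM, in control 1. At these depths 0 counts allow up to 1.3 CPM, so its absence cannot be told from a low level.

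The 25 G2/M members held 0 calls in either direction against Cre-negative urothelium, and 0 with an unadjusted p under 0.05. Mki67, the proliferation marker Ki-67 that coats mitotic chromosomes, had 422, 594, 448, 458 and 860 CPM in Dnmt1cKO libraries, 498 and 360 CPM in the controls, and 263 to 688 CPM (median 509) in Cre-negative libraries. Dnmt1cKO 5 was the highest of all 14 libraries and the rest overlapped. The log2 fold change was 0.25 ± 0.26 with a 95% interval of -0.29 to 0.79 (adjusted p = 0.78, edgeR), or 0.35 without the library labelled Dnmt1cKO 3. Top2a, the topoisomerase that untangles replicated DNA, had 366, 703, 259, 296 and 625 CPM in Dnmt1cKO libraries and 183 to 557 CPM (median 310) in Cre-negative libraries (log2 fold change 0.44 ± 0.31, adjusted p = 0.604, edgeR). For Top2a, Dnmt1cKO 2 and 5 were above the Cre-negative range.

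Among the mitotic cyclins, Ccna2, cyclin A2 of S phase and G2, had 49.1, 98.3, 2.41, 29 and 23 CPM in Dnmt1cKO libraries, 115 and 99.6 CPM in the controls and 34 to 128 CPM (median 95.2) in Cre-negative libraries. Its log2 fold change was -1.14 ± 0.57 (adjusted p = 0.379, edgeR), or -0.81 without the library labelled Dnmt1cKO 3, which was the lowest at 10 counts. Ccnb1, a cyclin B of mitotic entry, had 39.7, 136, 233, 37.7 and 55.2 CPM in Dnmt1cKO libraries (median 55.2) and 28.3 to 127 CPM (median 76.5) in Cre-negative libraries, with the library labelled Dnmt1cKO 3 highest. Ccnb2 averaged 102 and 63.1 CPM and Cdk1, the kinase of both, 131 and 85.4 CPM in Dnmt1cKO and Cre-negative libraries. Cdc25c, the phosphatase that activates Cdk1, averaged 11 and 11.4 CPM. Exons of Exosc9 overlap Ccna2 on the opposite strand, so reads of either gene may have been assigned to the other. Opposite-strand exons also overlap the G2/M members Cdc25c, Plk1, Cdc20, Ube2c, Nusap1 and Prc1. The G1/S members Ccne2, Cdk2, Rb1 and Mcm7 are overlapped in the same way, besides the D-type cyclin and kinase genes named above.

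Foxm1, the transcription factor of the mitotic genes, varied more between libraries than between groups, at 24.5, 36.7, 69, 0.242 and 8.26 CPM in Dnmt1cKO, 46.5 and 59.7 CPM in control and 4.09 to 50.9 CPM (median 23.7) in Cre-negative libraries. Dnmt1cKO 4 held 1 count of it. Aurka, the centrosomal Aurora kinase, had 86.8, 70.5, 44.5, 123 and 50.4 CPM in Dnmt1cKO libraries and 37.9 to 134 CPM (median 64.4) in Cre-negative libraries, and the groups overlapped. Plk1, the Polo kinase of mitotic entry, had 115, 86.3, 53.2, 106 and 38.3 CPM in Dnmt1cKO libraries and 29.2 to 81.1 CPM (median 61.9) in Cre-negative libraries (log2 fold change 0.61 ± 0.45, adjusted p = 0.641, edgeR). Dnmt1cKO 1, 2 and 4 lay above the Cre-negative range. The checkpoint genes Ttk, Bub1 and Bub1b and the passenger kinase gene Aurkb averaged 17.4 to 68.2 CPM in Dnmt1cKO and 22.3 to 100 CPM in Cre-negative libraries.

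Cdc20, which activates the anaphase-promoting complex, had 85.6, 79, 183, 22.7 and 0.87 CPM in Dnmt1cKO libraries and 15 to 109 CPM (median 72.6) in Cre-negative libraries. Ube2c, the ubiquitin-conjugating enzyme of that complex, had 46.2, 33.6, 27.2, 6.77 and 1.3 CPM in Dnmt1cKO libraries and 23.8 to 53 CPM (median 25.1) in Cre-negative libraries. Both genes were lowest in Dnmt1cKO 5, the shallowest library, where Aurkb, Ttk and Cdc25c had 0 counts. Birc5, which encodes survivin of the chromosomal passenger complex, had 482, 218, 330, 579 and 450 CPM in Dnmt1cKO libraries, 222 and 208 CPM in the controls and 141 to 444 CPM (median 253) in Cre-negative libraries, with a log2 fold change of 0.51 ± 0.29 (adjusted p = 0.473, edgeR).

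Of the spindle genes, Kif23, a kinesin of cytokinesis, had 138, 228, 126, 181 and 92.6 CPM in Dnmt1cKO libraries and 151 to 253 CPM (median 192) in Cre-negative libraries (log2 fold change -0.40 ± 0.29, adjusted p = 0.622, edgeR). Prc1, which bundles the central spindle, had 49.9, 89.3, 93.3, 85.8 and 103 CPM against 25.6 to 182 CPM (median 83.5) in the same groups. Prc1 overlapped fully, and for Kif23 3 Dnmt1cKO libraries lay below the Cre-negative range. Tpx2, Kif11 and Nusap1 averaged 46.6 to 146 CPM in Dnmt1cKO and 44 to 113 CPM in Cre-negative libraries, and the centromere genes Cenpa, Cenpe and Cenpf averaged 93.1 to 177 and 58.1 to 182 CPM.

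Against the Cre-positive controls, which share the Cre allele, Dnmt1cKO urothelium held 0 called members in either direction with edgeR, and 0 with DESeq2 and limma-voom. Of all tested genes 0.177% were called higher and 0% lower. Before adjustment, 2 members (Ccnd2 and Birc5) were higher with p under 0.05 and 0 lower, against 1.71% and 5.23% of all tested genes. This comparison shares the Dnmt1cKO libraries with the first. The median log2 fold change was 0.11 over the G1/S and 0.35 over the G2/M members, or 0.08 and 0.17 without the library labelled Dnmt1cKO 3, against -0.003 over all tested genes.

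Ccnd1, the member called against Cre-negative urothelium, had a log2 fold change of -0.46 ± 1.26 over the controls (adjusted p = 1, edgeR), with a 95% interval from -3.06 to 2.13. The sign turned without control 2 (0.89). Ccnd2 was at 1.39 ± 0.47 (adjusted p = 0.49), with all 5 Dnmt1cKO libraries above both controls, as in 2.6% of all tested genes. Ccnb2, the second cyclin B, was the other member with all 5 above, at 85.1 to 117 CPM against 49.2 CPM in each control. Ccna2 (-1.41 ± 0.74, adjusted p = 0.802, or -1.09 without the library labelled Dnmt1cKO 3) and Prc1 (-0.77 ± 0.57, adjusted p = 1) had all 5 Dnmt1cKO libraries below both controls, as had 9.74% of all tested genes. Birc5 was at 0.94 ± 0.44 (adjusted p = 0.697), Aurka at 1.17 ± 0.69 (0.891) and Tyms at 0.77 ± 0.44 (0.876), and Mki67 at 0.37 ± 0.38 (adjusted p = 1, all edgeR). Kif23, Top2a and Cdk4 had 95% intervals within 2-fold either way, as had 2.67% of all tested genes.

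Between the controls and Cre-negative urothelium, which differ by the Cre allele at Shh and perhaps by floxed alleles, which are not stated for Cre-negative embryos, 0 members were called by edgeR in either direction, against 0.0538% of all tested genes higher and 0% lower. With no adjustment, p under 0.05 was reached by 1 higher member, Ccnd1, and 0 lower ones, against 3.49% and 0.177% of all tested genes. DESeq2 and limma-voom each called 1 member higher, Ccnd1. With 34.3 and 141 CPM in the controls against at most 12 CPM in Cre-negative libraries, its log2 fold change was 4.85 ± 1.11 (adjusted p = 0.17, edgeR), 5.83 without Cre-negative 5 (adjusted p = 0.034), 3.52 without control 2 (adjusted p = 1) and 3.51 with the stroma covariate (adjusted p = 1). Both controls lay above all Cre-negative libraries, as in 6.04% of all tested genes, and 0 members had both controls below them, against 1.9% of those genes. Mki67, Cdk4 and Pcna had 95% intervals within 2-fold either way, as had 4.33% of all tested genes. Ccnd2 (-0.33 ± 0.42) and Ccnd3 (-0.08 ± 0.56) each had an adjusted p of 1. The median over the G1/S members was -0.10 and over the G2/M members -0.12, against -0.044 over all tested genes.

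Levels per length of exon order the members within a group. In Dnmt1cKO libraries Birc5 led with 121 CPM per kb, followed by Cdk4 (99.8), Ccnd2 (91.4) and Ccnb2 (66.6), and Mki67 was at 55.3. In Cre-negative libraries Cdk4 led with 102 CPM per kb, followed by Birc5 (84.7), Pcna (56.3), Mki67 (46.4) and Ccnd2 (44). Ccnd1 was at 13.5 CPM per kb in Dnmt1cKO, 18.6 in control and 0.634 in Cre-negative urothelium, where only Cdk6 (0.466) and Cdkn2a (0) were lower among the 52. These lengths take all annotated exons of a gene together, and the used isoforms were not resolved.

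Averaged over members, each scaled to its mean over the 14 libraries, the G1/S level was 0.968, 1.37, 1.14, 0.962 and 1.08 in Dnmt1cKO libraries, 0.886 and 1.1 in the controls and 0.711 to 1.2 in Cre-negative libraries. The G2/M level was 0.903, 1.38, 1.18, 0.954 and 0.887 in Dnmt1cKO libraries, 1.05 and 0.85 in the controls and 0.633 to 1.38 in Cre-negative libraries. All 3 groups overlapped in both classes. Dnmt1cKO 2 and Cre-negative 4 were high in both, and Cre-negative 2 was low in both.

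**Figure D3:**
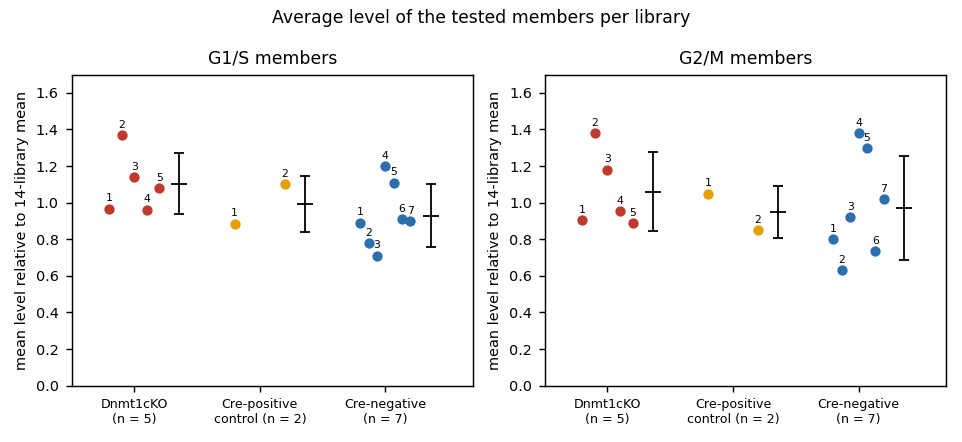
Mean level of the tested G1/S (left) and G2/M (right) members in each library relative to the mean of the 14 libraries, numbered by replicate, with the mean and SD of each group beside the points. The groups overlap in both classes, and the spread within the Cre-negative group runs from 0.711 to 1.2 for G1/S and from 0.633 to 1.38 for G2/M members.

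Spread between lysates was larger in Dnmt1cKO than in Cre-negative urothelium, for members as for other genes. Over the 41 members with a mean of at least 20 CPM in both groups, the median coefficient of variation was 50.1% in Dnmt1cKO and 38.6% in Cre-negative libraries, and it was higher in Dnmt1cKO for 30 of them (73.2%). Over all 6304 tested genes of that level the medians were 60% and 37.8%, and 80.8% were higher in Dnmt1cKO. By class, it was higher in Dnmt1cKO for 15 of 18 G1/S members (83.3%), with medians of 50.8% and 31.6%. For G2/M members it was higher in 15 of 23 (65.2%), with closer medians of 48.5% and 42.2%. Among the members that went the other way were Rrm2 and Ccnb2, at 10.4% and 11.6% in Dnmt1cKO against 45.2% and 38.4% in Cre-negative libraries. Totals were also lower in most Dnmt1cKO libraries, and the part of depth in this spread was not tested.

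Across the 14 libraries the members were only loosely tied to each other. The median Pearson correlation of log2(CPM + 1) was 0.074 over the 325 pairs within the G1/S class, 0.154 over the 300 pairs within the G2/M class and 0.133 over the 650 pairs between the classes, against 0.031 over pairs of all tested genes with a mean of at least 5 CPM. The points share library and depth, and these values are descriptions. A few pairs went together closely: Mcm5 and Rrm1 (r = 0.956), Mcm2 and Mcm6 (0.904), Aurkb and Cdc20 (0.895), Aurkb and Ube2c (0.878), and Bub1 and Tpx2 (0.872). Ccna2 went with Mcm7 (0.869) across the classes. A correlation of at least 0.7 was reached by 6 pairs within G1/S, 13 within G2/M and 20 between the classes, shares of 1.85%, 4.33% and 3.08%, against 2.3% of pairs of all tested genes at that level.

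**Figure D4:**
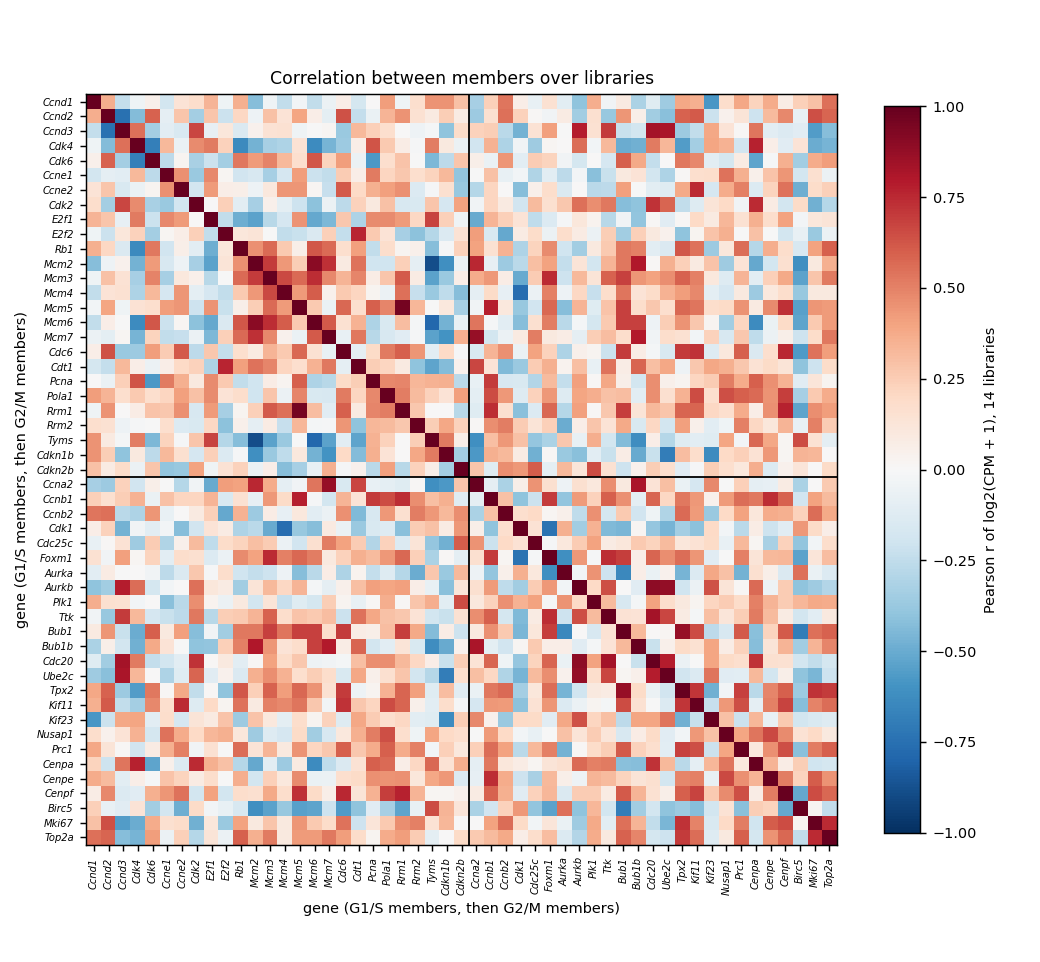
Pearson correlation of log2(CPM + 1) over the 14 libraries for each pair of tested members, in the order of their roles, with a line between the G1/S and G2/M members; red is positive and blue negative. No block of high values fills either class, with class medians of 0.074 and 0.154.

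Of tested genes that are not members, those most like Ccnd1 over the 14 libraries were Mcam (r = 0.919), Dlk1 (0.91), Pnmal2 (0.908), Jun (0.891) and Rhoc (0.886). As follows from choosing them by their likeness to Ccnd1, each averaged lower in Cre-negative libraries than in the other groups. Mcam averaged 57.8 CPM in Dnmt1cKO, 39.4 CPM in control and 2.48 CPM in Cre-negative libraries, and Jun 135, 104 and 20.3 CPM. Ccnd1 itself had a correlation of 0.735 with the stroma mean, the highest of the members, followed by E2f1 (0.689) and Pola1 (0.662), while Mcm2 was at -0.481. Among those most like Mki67 were Anp32e (0.91), Kif14 (0.882), Tead1 (0.863) and Ncl (0.828), and Mki67 had a correlation of 0.273 with the stroma mean.

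Genes of the same processes outside the 52 were counted in 3 lists, drawn up with earlier results of these data known. Their counts beside the shares over all tested genes are therefore descriptions only. Of 38 other replication genes, 0 were higher and 1, Gins3, was lower in Dnmt1cKO than in Cre-negative urothelium, with a median log2 fold change of 0.12. Of 46 other mitosis genes, 0 were called either way by edgeR, with 5 higher and 0 lower where an unadjusted p under 0.05 is used, and 33 (71.7%) were positive, with a median of 0.31. Of 29 other regulators, 2 were higher (Cdkn1a and Ccng1), 0 lower, and the median was -0.091. Over all tested genes 0.915% were called higher, 0.184% lower, 6.66% and 7.03% were higher and lower before adjustment, and 47.9% were positive. Against the controls 0 genes of the 3 lists were called by edgeR, with 6 higher and 1 lower in all where an unadjusted p under 0.05 is used, against 1.71% and 5.23% of all tested genes.

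Gins3, on chromosome 8 from 95633453 to 95645060 (plus strand), encodes a subunit of the GINS complex that joins the Mcm helicase at the fork. It had 0, 0.104, 0.481, 0.242 and 0 CPM in Dnmt1cKO libraries, each under the level of 3 counts, 12.4 and 13.9 CPM in the controls, and 6.64 to 35.8 CPM (median 22.3) in Cre-negative libraries. All 5 Dnmt1cKO libraries lay below the Cre-negative ones in 0.999% of all tested genes, and below both controls in 9.74%. For Gins3 the 5 Dnmt1cKO libraries, the library labelled Dnmt1cKO 3 included, lay below all 9 others. The log2 fold change was -6.84 ± 1.53 over Cre-negative (adjusted p = 0.0211) and -6.13 ± 1.61 over the controls (adjusted p = 0.249, both edgeR), and the call against Cre-negative was kept without the library labelled Dnmt1cKO 3 (-7.56, adjusted p = 0.0141) and with the stroma covariate (-7.99, adjusted p = 0.0464). It was lost without Cre-negative 4 (adjusted p = 0.0625), without Cre-negative 7 (0.0654) and without the 3 libraries of lowest total (0.0509).

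Cdkn1a, which encodes the inhibitor p21, had 218, 55.6, 118, 24.2 and 87.4 CPM in Dnmt1cKO libraries, 9.12 and 16.5 CPM in the controls and 1.03 to 24.9 CPM in Cre-negative libraries. Dnmt1cKO 4 lay just inside the Cre-negative range and the other 4 above it. The log2 fold change over Cre-negative was 2.69 ± 0.66 (adjusted p = 0.0401, edgeR), but the call was lost in several settings, among them without the library labelled Dnmt1cKO 3 (2.64, adjusted p = 0.0662) and without Dnmt1cKO 1 (2.19, adjusted p = 0.155). Exons of AC167363.2 overlap Cdkn1a on the opposite strand, so reads of either gene may have been assigned to the other. Ccng1, cyclin G1, had 213, 561, 580, 463 and 274 CPM in Dnmt1cKO libraries, 113 and 109 CPM in the controls and 126 to 156 CPM in Cre-negative libraries. Every Dnmt1cKO library lay above the Cre-negative ones in 0.861% of all tested genes, and above both controls in 2.6%. Ccng1 had every Dnmt1cKO library above the 9 others. Its log2 fold change was 1.58 ± 0.27 over Cre-negative (adjusted p = 0.00138) and 1.91 ± 0.44 over the controls (adjusted p = 0.0812, both edgeR), and 1.46 over Cre-negative without the library labelled Dnmt1cKO 3 (adjusted p = 0.00478).

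**Figure D5:**
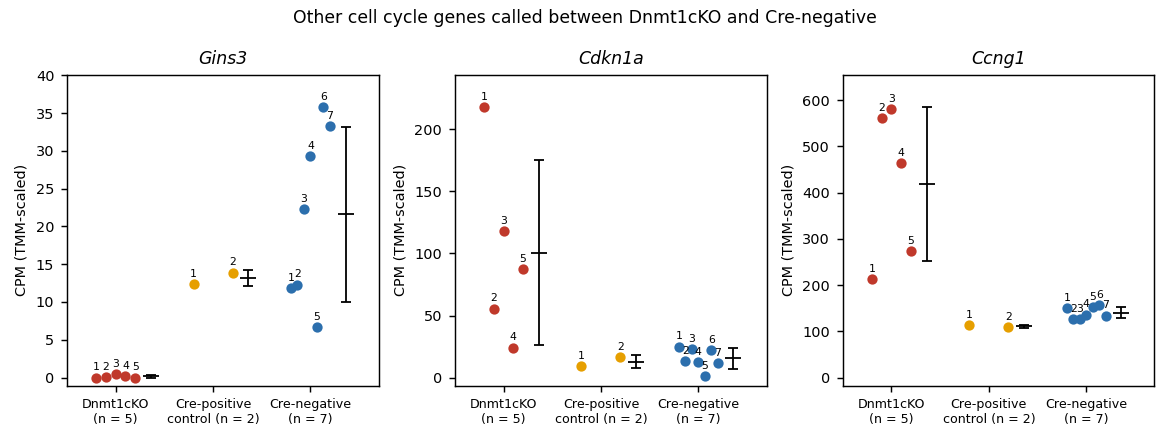
CPM (TMM-scaled, linear axis) of Gins3, Cdkn1a and Ccng1 in each library, numbered by replicate, with the mean and SD of each group beside the points. Gins3 is at most 0.481 CPM in Dnmt1cKO libraries and at least 6.64 CPM elsewhere, and Ccng1 is at least 213 CPM in Dnmt1cKO libraries and at most 156 CPM elsewhere.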

How the data were processed

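The authors deposited RSEM expected counts per gene, not scaled to library size, for 20308 symbols in 14 libraries. Tools named in the submitters' processing notes are RSEM 1.2.3, Bowtie 0.12.9 and bcl2fastq 2.17.1.14, with the mm10 build; annotation and strand setting are not given in the sources used here. From 7.31% to 21.9% of a library's values were not whole, and all were rounded. Libraries were PCR amplified without stated molecular identifiers, and floors therefore cover counting error only.

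Genes passing filterByExpr (13011) were scaled by TMM and tested with edgeR 4.0.16 in R 4.3.3 (quasi-likelihood, 14 libraries in 1 fit, no covariate), with Benjamini-Hochberg adjustment over all tested genes and calls at an adjusted p under 0.05. Errors are standard errors beside fold changes and standard deviations beside CPM. Alternatives used DESeq2 1.42.0, limma 3.58.1, other scalings, filters, covariates and left-out libraries. The test was checked on simulated counts for Dnmt1cKO over Cre-negative. It found 0 of 50 genes set to differ 2-fold and 17 of 50 at 4-fold. At 16-fold it found 31 of 50 and at 64-fold 42 of 50. Of 12811 genes set not to differ, 3 were called. Each simulated gene had the same spread setting in all groups, and the genes set to differ had a mean of at least 50 counts. The check therefore does not cover the unequal spread of the real groups, given above, or recovery at lower counts. Members and lists were chosen with earlier results of these data known. Named are the D-type cyclins, Mki67, Cdkn2a, called genes, and per role the members with the smallest p in either Dnmt1cKO comparison; of each list outside the members, called genes and up to 3 more with the smallest p; and the 5 genes most correlated with Ccnd1 and Mki67, of which 1 is not reported here. Folds smaller than their standard error are mostly not printed. Others named were chosen after their values were seen. Positions come from GENCODE M21 on GRCm38, which is mm10. A library's level of 3 counts is its floor. Of the marker genes listed, 2 were not in the table.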

Additional observations from a re-analysis of the deposited data

Results flagged for a closer look

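In 2 of 50 groups of member values, 1 library stood far from the others of its group relative to the group's whole range, where chance gives about 1 in 20 groups, or 2.5. Aurka was at 134 CPM in Cre-negative 2, with the next Cre-negative library at 68.8 CPM. Ube2c was at 53 CPM in Cre-negative 5, with the next at 31.7 CPM. Neither gene was called in any comparison.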

How the results depend on the processing

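The count of members called higher for Dnmt1cKO over Cre-negative (1 in the report) was 2 with no filter, with DESeq2 and with limma-voom, 0 in the fit of the 2 groups alone and 0 without the 3 libraries of lowest total, and ran from 0 (without Cre-negative 7) to 2 (without Dnmt1cKO 1) when 1 library was left out. Without the 3 libraries of highest stroma mean, an alternative chosen after seeing the data, it was 1, but the gene was Ccnd2 (1.36, adjusted p = 0.0412) in place of Ccnd1. For control over Cre-negative the count was 1 with no filter, DESeq2 and limma-voom, and 0 to 1 with 1 library left out (1 without Cre-negative 5). The sign of Ccnd1 in Dnmt1cKO over control turned with the stroma covariate (0.82) and without the highest-stroma libraries (0.80), with a range of -1.16 (without control 1) to 0.89 (without control 2) when 1 library was left out, and that of Ccnd3 in control over Cre-negative ran from -0.19 to 0.02. The G1/S median of control over Cre-negative was -0.458 with the stroma covariate, -0.244 without the highest-stroma libraries and -0.245 to 0.035 with 1 library left out. The G2/M median of Dnmt1cKO over Cre-negative ran from -0.092 to 0.37 over all alternatives. Of 662 values of named genes under alternatives, 4 changed sign, 23 lost a call, 17 gained one and 618 did neither; the cause was not tested. Over all tested genes, 119 higher and 24 lower calls of Dnmt1cKO over Cre-negative became 332 and 235 with DESeq2, 162 and 292 with limma-voom, 205 and 44 with no filter, 76 and 10 with the 2 groups alone and 76 and 9 with the stroma covariate. Over the controls 23 and 0 became 88 and 25 with DESeq2 and 59 and 173 with limma-voom, and for control over Cre-negative 7 and 0 became 13 and 8, and 40 and 0. The median of all genes shifted by -0.316, -0.722 and 0.198 in these 3 comparisons with limma-voom and by -0.113 for Dnmt1cKO over control with upper-quartile scaling. Same-numbered libraries did not deviate together (correlations of -0.21 to 0.122), so the replicate numbers gave no sign of pairing. These few values cannot exclude pairing, since the deviations of the controls from their mean mirror each other. With the number as a block in Dnmt1cKO over Cre-negative, Ccnd1 stayed called (5.12, adjusted p = 0.0301). Gins3 (adjusted p = 0.215), Cdkn1a (0.319) and Ccng1 (0.0743) did not, and calls over all genes were 64 and 11. At 2520509 counts the shallowest library, Dnmt1cKO 5, resolves 1.3 CPM. There E2f2, Cdt1 and Cdkn2a had 0 counts, whereas Cdk6 had 53 and was at 0 in the deeper Dnmt1cKO 4. E2f2 and Cdt1 had 43 and 100 counts in Cre-negative 2, also a shallow library. In deeper ones, E2f2 had 0 counts in Cre-negative 5 and Cdt1 had 1 in Cre-negative 6. The part of depth in these low values was not tested.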

Other observations

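The 3 genes of the fork and its chromatin outside the members, those with the smallest p after Gins3, did not pass the test. Uhrf1, which recruits Dnmt1 to newly copied DNA, had 222, 243, 295, 194 and 213 CPM in Dnmt1cKO libraries, 129 and 165 CPM in the controls and 102 to 194 CPM (median 154) in Cre-negative libraries. All 5 Dnmt1cKO libraries lay at or above the highest of the others (unadjusted p = 0.0154 against Cre-negative, adjusted p = 0.239, edgeR). The share of all tested genes with all 5 above was 0.861% against Cre-negative libraries and 2.6% against the controls. Pole, the leading-strand polymerase, had 11.7, 58.1, 40.2, 47.1 and 52.2 CPM in Dnmt1cKO libraries and 34.1 and 11 CPM in the controls. Against 6.82 to 23.5 CPM (median 11.1) in Cre-negative libraries, all Dnmt1cKO libraries but Dnmt1cKO 1 were above the range, as was control 1 (adjusted p = 0.278 for Dnmt1cKO over Cre-negative, edgeR). Prim1, a primase subunit, had 44, 44, 130, 143 and 46.1 CPM in Dnmt1cKO libraries and 0.382 to 73.3 CPM in Cre-negative libraries, with Dnmt1cKO 4 and the library labelled Dnmt1cKO 3 above that range (adjusted p = 0.448, edgeR).

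Among the kinetochore and passenger genes outside the members, Incenp, the scaffold of the passenger complex, had 178, 152, 323, 236 and 434 CPM in Dnmt1cKO libraries, 117 and 85.6 CPM in the controls and 39.4 to 190 CPM (median 111) in Cre-negative libraries (adjusted p = 0.0967, edgeR). Ndc80, which binds microtubules at the kinetochore, had 155, 111, 260, 109 and 164 CPM in Dnmt1cKO libraries and 25.6 to 119 CPM (median 65.9) in Cre-negative libraries (adjusted p = 0.105). Its partner Spc25 had 67.9, 56.5, 307, 245 and 166 CPM in Dnmt1cKO libraries and 23.1 to 95.1 CPM (median 55) in Cre-negative libraries (adjusted p = 0.11). In all 3 genes Dnmt1cKO 5 and the library labelled Dnmt1cKO 3 were above the Cre-negative range. Dnmt1cKO 4 was also above it for Incenp and Spc25, and Dnmt1cKO 1 for Ndc80. For all 3 genes, the 5 Dnmt1cKO libraries lay above both controls, as in 6 of the 46 other mitosis genes and 2.6% of all tested genes. Of the other regulators, Lin9 of the MuvB complex (adjusted p = 0.282), Ccnh of the Cdk-activating kinase (0.345) and Fzr1, a coactivator of the anaphase-promoting complex (0.377), averaged 57, 141 and 29 CPM in Dnmt1cKO and 12.5, 87.6 and 70.5 CPM in Cre-negative libraries. Exons of genes on the opposite strand overlap Pole, Ccnh and Fzr1.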
